A study of Mus musculus with 2 samples.

Results

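Methylation was examined at the alternative promoters of 6 imprinted genes, Gnas, Nespas, Grb10, Plagl1, Impact and Slc38a4, in mouse embryonic stem cells (mESCs) of female origin. The genes were chosen because each has several annotated transcription starts, only some of which carry a parental imprint, and members were all CpG cytosines listed from 5 kb upstream of a gene to its end. This gave 1052 of the 1782730 cytosines of the series. The genes, 6 of 53843 annotated on chromosomes 1 to 19 and X, have 53 distinct starts, which formed 30 start groups when starts of one gene no more than 500 bp apart were joined. The number of start groups was 7 for Gnas, 2 for Nespas, 8 for Grb10, 4 for Plagl1, 5 for Impact and 4 for Slc38a4, so each gene had several.

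The cells were Xmas mESCs of the C57/Bl6 strain, which carry X-linked GFP and mCherry reporters driven by the Hprt promoter, and were grown by the modified culture method. FACS separated XX cells, which carry both reporters, from XO cells, which have lost an X chromosome and its reporter, and both groups share strain, line and culture method. Reduced representation bisulfite sequencing (RRBS), which reads CpG-rich fragments of the genome after unmethylated cytosines have been converted, was done on 1 XX library and 1 XO library. Without replicates, no difference below has a replicate error and no test was made. The labels give 7 passages in culture, which is not the number in the methods, and expressed markers of cell identity were not measured.

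An imprinted promoter is methylated on the allele from one parent only. The mark is set in the egg or sperm and is normally kept through the wave of demethylation in the early embryo, so an intact imprint reads at an intermediate level when alleles are not told apart. In XX mESCs, in which both X chromosomes are active, DNA methylation is low across the genome and imprints are known to erode. Promoters of the same gene that carry no imprint are usually CpG-rich and unmethylated on both alleles.
Gnas encodes the stimulatory G protein alpha subunit from exon 1, and has upstream promoters for Nesp, a chromogranin-like secretory protein, and Gnasxl, an extra-large form of the subunit. Exon 1A is the first exon of an untranslated transcript, and Nespas is transcribed in antisense from near the Gnasxl start. Gnasxl, Nespas and exon 1A are known as maternally methylated starts, and Nesp gains methylation on the paternal allele later in development. Grb10 encodes an adaptor that restrains insulin receptor signalling, with an unmethylated major promoter and a maternally methylated downstream start that is used in neurons. Plagl1 (Zac1), which encodes a zinc finger transcription factor, likewise has an upstream promoter without imprint and a maternally methylated one downstream. Impact encodes an inhibitor of the kinase GCN2, and Slc38a4 an amino acid transporter of placenta and liver, and both have a maternally methylated region at the start of the gene.

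The sequences below show what was read at promoters with and without an imprint. Each is the 100 bp outside annotated exons and within 1 kb of a start that held most listed cytosines, written 5′ to 3′ on the strand of the gene and taken from the RefSeq genome sequence of GRCm38, with CpGs that have a listed value in capitals.
Gnasxl, chr2:174297332-174297431, forward strand: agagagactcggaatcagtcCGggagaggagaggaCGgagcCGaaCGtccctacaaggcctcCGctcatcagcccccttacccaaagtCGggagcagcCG
Gnas exon 1, chr2:174330475-174330574, forward strand: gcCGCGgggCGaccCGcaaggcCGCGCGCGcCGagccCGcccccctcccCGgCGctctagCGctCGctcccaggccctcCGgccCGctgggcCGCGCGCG
Grb10 major promoter, chr11:12037545-12037644, reverse strand: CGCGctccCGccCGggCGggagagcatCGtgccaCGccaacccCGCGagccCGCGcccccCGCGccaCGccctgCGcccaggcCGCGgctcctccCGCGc
Grb10 imprinted start, chr11:12026370-12026469, reverse strand: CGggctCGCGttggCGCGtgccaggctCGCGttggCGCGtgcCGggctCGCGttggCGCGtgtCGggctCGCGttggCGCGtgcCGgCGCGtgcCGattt
Plagl1 upstream promoter, chr10:13061028-13061127, forward strand: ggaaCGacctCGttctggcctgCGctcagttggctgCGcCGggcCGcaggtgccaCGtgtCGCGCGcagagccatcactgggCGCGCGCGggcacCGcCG
Plagl1 imprinted start, chr10:13091029-13091128, forward strand: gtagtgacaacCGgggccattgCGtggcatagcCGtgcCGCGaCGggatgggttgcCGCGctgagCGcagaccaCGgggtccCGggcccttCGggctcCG
Slc38a4 first start, chr15:97055179-97055278, reverse strand: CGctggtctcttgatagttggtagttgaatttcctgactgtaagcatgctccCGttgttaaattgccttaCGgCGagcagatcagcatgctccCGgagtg
In the Gnas exon 1 stretch, 40 listed cytosines averaged 0% in both libraries. In the equally CpG-dense Grb10 imprinted stretch, 45 cytosines averaged 4.84% in XX against 20.1% in XO cells. That stretch is repetitive, and the 16 bases CTCGCGTTGGCGCGTG occur 4 times in it. The Plagl1 imprinted stretch averaged 4.15% in XX against 13.2% in XO cells over 25 cytosines, whereas the Plagl1 upstream stretch averaged 15.2% and 7.60% over 26 cytosines. The Gnasxl stretch lies upstream of the start and averaged 14.1% in XX against 17.2% in XO cells over 12 cytosines, a smaller gap than in the exon downstream of it. In the Slc38a4 stretch, in intron 1, 5 cytosines averaged 12.4% in XX against 27.9% in XO cells.

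Methylation (%mCpG) is the percentage of reads at a cytosine that kept it, and each start group was given the mean of its cytosines within 1 kb of any of its starts, followed here by the SD over cytosines. Differences are XX minus XO in percentage points. Neighbouring cytosines are often read together and are not replicates. At Gnas exon 1, for example, 28 forward-strand cytosines in a row had the value 0% in both libraries, and the 142 cytosines there formed 51 runs of neighbours on one strand with the same pair of values. Read counts were not used here, so the depth is unknown. As a measure of precision, the differences on the forward and reverse strands, which are read from different molecules, were compared at 20549 autosomal start groups with at least 5 cytosines on each strand, and the spread between strands was 6.78 points (SD of the strand values around their mean).
Of the 30 start groups, 7 had no listed cytosine, 3 had 1 or 2, and 20 had at least 3, of which 15 had at least 10. The starts known as imprinted made up 7 groups, all with listed cytosines, although Nespas had only 2. The start groups with no value were internal starts of Gnas, Grb10 (3 groups), Plagl1, Impact and Slc38a4.

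The imprinted starts had low to intermediate methylation in XO cells and less in XX cells. Over the 6 groups with at least 3 cytosines, the median was 11.2% in XX against 21.5% in XO cells. XX was below XO at 6 of 6, where 73.6% of 31492 autosomal start groups were lower by any amount, and the differences lay between -15.2 and -3.19 points. The median difference was -10.0 points. It was -5.32 points for the 14 other start groups of the same genes, of which 12 were lower in XX cells, and -3.15 points for the autosomal start groups. All 6 imprinted groups had at least 10% methylation in XO cells, against 10 of the 14 others and 19310 of the 31492 autosomal groups. Groups with less have little to lose, so 73.6% and -3.15 points are not for starts of like level. The 14 are not all separate, although medians and counts here and below treat them so. The Nesp exon starts, with 57 cytosines, and the Nespas start inside Nesp, with 58, share 56. The median of the 14 lay between -7.12 points at the Nesp exon starts and -3.51 points at the Grb10 major promoter. Joining the overlapping Nesp windows would move it towards the latter.
Which starts of Grb10 and Impact count as imprinted decides how these classes compare. They were assigned from knowledge of the loci, but with the methylation of each start already known, and the assignment departs for both genes from the rule first written down. That rule, read literally, takes the Grb10 major promoter and the most upstream Impact start as imprinted. The medians are then -5.80 points for imprinted and -9.63 points for other starts, with 5 of 6 imprinted starts lower in XX cells, so the order of the classes is the opposite, and no difference between the classes was established.
At 8 of the 20 member groups XX methylation was lower by 10 points or more, against 29.0% of autosomal start groups. They were 3 of 6 imprinted starts (Impact, Grb10 and Gnasxl) and 5 of 14 others. The 5 include the Impact intron starts, which were read from the same stretch of 32 cytosines as most of the imprinted Impact window. Gnasxl did not pass with 500 bp windows (-5.71 points), with 2 kb windows (-8.34 points), with medians (-9.88 points) or on the reverse strand (-8.60 points), Impact did not with medians (-7.77 points), and Grb10 did not on the forward strand (-9.03 points). None of the 20 was higher by as much, against 2.19%. At thresholds of 5 and 20 points the counts were 12 and 2 of 20, against 41.3% and 15.2%. Of the 15 groups with at least 10 cytosines, 5 were lower by 10 points or more, against 14.1%. Among start groups with at least 10% methylation in XO cells, 8 of 16 member groups and 47.3% of all were lower by that much, so methylated starts of these genes passed the threshold about as often as methylated starts in general.

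**Figure D1:**
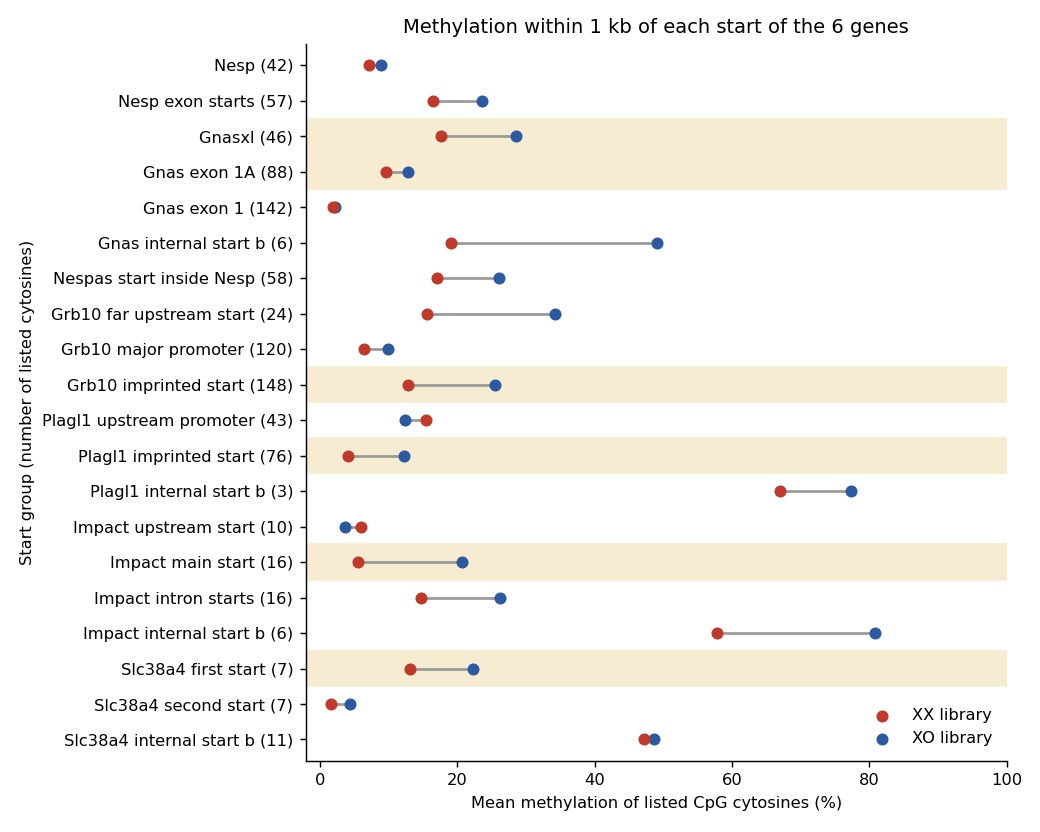
Mean methylation (%) of listed CpG cytosines within 1 kb of each start group with at least 3 of them, in the XX library (red) and the XO library (blue), joined by a grey line; the number of cytosines is in parentheses and imprinted starts are shaded. XX lies left of XO at all 6 shaded groups, and right of XO at the Plagl1 upstream promoter and the Impact upstream start.

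The share of methylation kept is XX as a percentage of XO. It was 26.7% at Impact, 33.8% at Plagl1, 50.1% at Grb10, 58.7% at Slc38a4, 62.1% at Gnasxl and 75.1% at Gnas exon 1A, with a median of 54.4%. The median was 67.7% over the 10 other start groups with at least 10% methylation in XO cells, and 67.3% over 19310 such autosomal start groups. The share was measured with little precision: the median gap between the strands of a window, divided by the square root of 2, was 23.8 points over 9286 start groups.

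**Figure D2:**
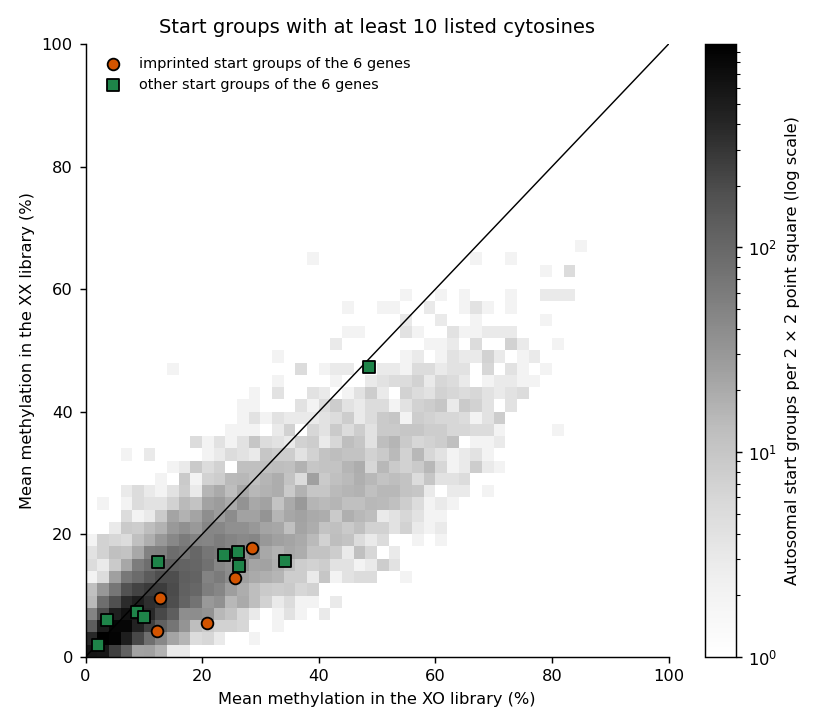
Mean methylation in the XX library against the XO library for autosomal start groups with at least 10 listed cytosines, as counts per square (grey, log scale), with the 5 imprinted (orange circles) and 10 other (green squares) start groups of the 6 genes; the line marks equal values. The Impact and Plagl1 imprinted starts, at 5.53% and 4.13% in XX cells, lie below the line, and Slc38a4 has a start near the line at 47.2% and 48.6%.

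At Gnas (GRCm38 chromosome 2, 174284320 to 174346744, forward strand, ENSMUSG00000027523.19) the promoters differed from one another. Around the Gnasxl start (174296859 to 174298859), 46 cytosines averaged 17.7% ± 20.7 in XX against 28.5% ± 25.7 in XO cells, a difference of -10.8 points. XX was lower at 33 cytosines and higher at 13, and the strands gave -13.4 and -8.60 points. The cytosines that were lower in XX cells lay mainly in the exon itself. From 174297978 to 174298474, 30 exonic cytosines averaged 11% in XX against 23.5% in XO cells, and 24 of them were lower in XX cells. Upstream of the start, from 174297352 to 174297431, 12 cytosines averaged 14.1% and 17.2%. Further upstream in the window, 4 reverse-strand cytosines had 65% to 85% in XX against 100% in XO cells.
Low methylation went on beyond the 1 kb window, mainly in annotated exons. From 174299355 to 174299690, 29 cytosines averaged 10.3% in XX against 18.6% in XO cells, and from 174299898 to 174300607, 51 cytosines averaged 9.18% and 19.1%. Between these and the start, from 174299003 to 174299202, 21 cytosines averaged 19.7% and 21.5%, with an SD of 31.3 points in XX cells, as 5 neighbouring forward-strand cytosines had between 56.2% and 87.5% there and 46.2% to 50% in XO cells. Further downstream, from 174300928 to 174300980, 5 cytosines averaged 48.3% in XX against 63.3% in XO cells.

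The exon 1A starts (window 174326570 to 174329023) differed little between the libraries. Over 88 cytosines the mean was 9.65% ± 9.14 in XX against 12.8% ± 15.4 in XO cells, a difference of -3.19 points that is less than the spread between strands, with forward and reverse values of -0.344 and -6.05 points. At the starts themselves, from 174327822 to 174328003, 29 cytosines averaged 5.58% and 5.0%, and XX was lower at 10 of them. Downstream, from 174328326 to 174328781, 55 cytosines in annotated UTR averaged 12.2% in XX against 17.4% in XO cells.
The neighbouring exon 1 promoter (174329006 to 174331287), which drives the G protein subunit itself, was almost unmethylated. Its 142 cytosines averaged 1.89% ± 4.16 in XX against 2.23% ± 5.87 in XO cells, and 103 of them were at 0% in XX and 112 in XO cells. Low values ended within the gene: 8 cytosines outside exons from 174330822 to 174330927 averaged 7.50% and 22.0%.

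The Nesp start (174283320 to 174285320) had 7.25% ± 12 in XX against 8.87% ± 13.1 in XO cells over 42 cytosines, and 71.4% of them were shared with the window of the Nesp exon starts just downstream. That window averaged 16.6% ± 23.2 and 23.7% ± 32 over 57 cytosines, and the distal Nespas start inside Nesp shared 56 of its 58 cytosines with it and averaged 17.1% and 26.1%. Downstream of the Nesp start, methylation was higher further along in both libraries, partly outside annotated exons. From 174284689 to 174284852, 28 cytosines averaged 2.27% in XX against 5.32% in XO cells, from 174285320 to 174285724, 23 averaged 24.9% and 33.1%, and from 174285963 to 174286030, 5 outside exons averaged 59.0% and 87.3%. The strands differed here, and in the window of the Nesp exon starts the forward strand averaged 3.83% and 4.01% over 19 cytosines and the reverse strand 22.9% and 33.5% over 38. It was low again from 174287606 to 174287816, where 9 cytosines averaged 5.44% and 2.43%. At the main start of Nespas, the antisense transcript (reverse strand, ENSMUSG00000086537.7), only 2 of 159 CpG cytosines were listed, at 0% in XX cells for both and at 3.70% and 31.4% in XO cells.

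**Figure D3:**
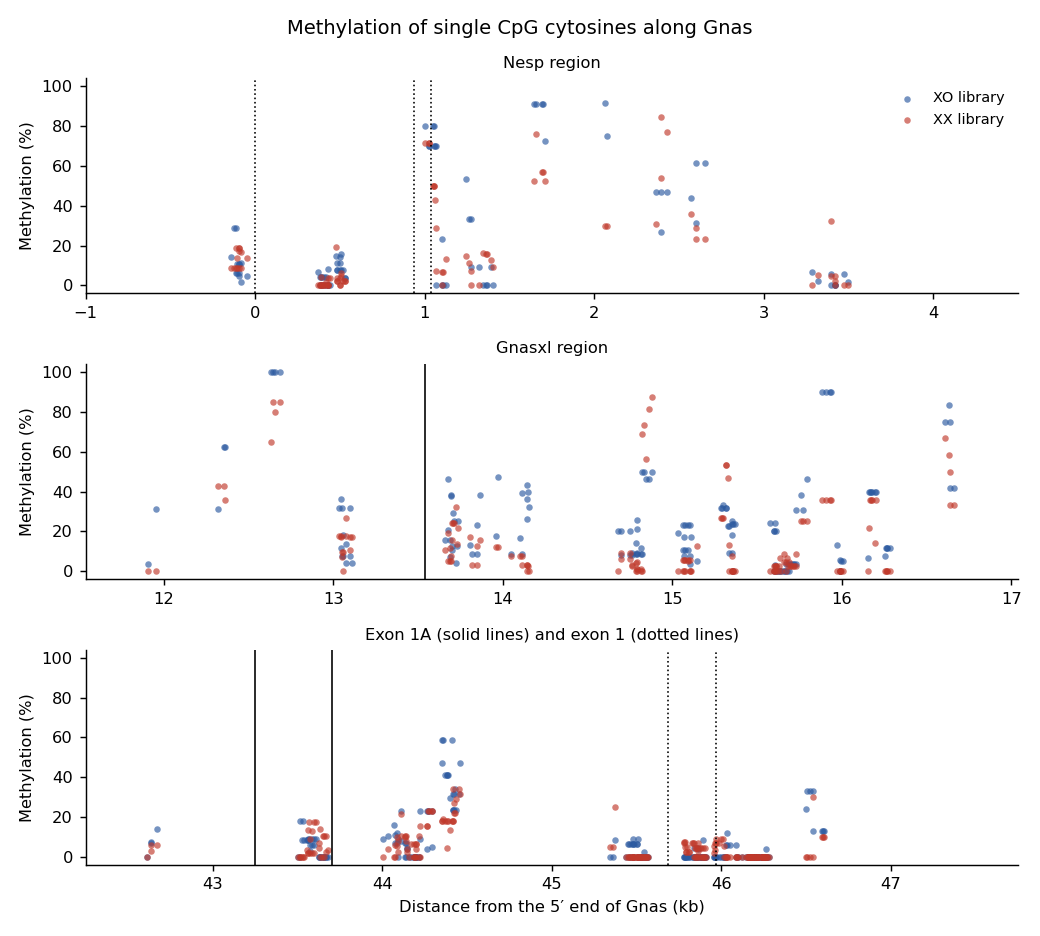
Methylation (%) of single listed CpG cytosines against distance from the 5′ end of Gnas (kb) in the XX (red) and XO (blue) libraries, around Nesp, Gnasxl, and exons 1A and 1; vertical lines are Gnas starts, solid for imprinted and dotted for other ones, with the first and last start of a group drawn. Blue points lie above most red points in the Gnasxl exon, rise to over 80% beyond the Nesp exon starts, and lie at or near 0% with the red ones at exon 1.

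At Grb10 (chromosome 11, 11930508 to 12038683, reverse strand, ENSMUSG00000020176.17) the imprinted start and the major promoter were both densely covered. At the imprinted start (12025324 to 12027732), where 148 of 318 CpG cytosines were listed, methylation was 12.8% ± 17.4 in XX against 25.6% ± 21.1 in XO cells. The difference of -12.8 points held on both strands (-9.03 and -17.6 points), and XX was lower at 107 cytosines, equal at 18 and higher at 23. The median cytosine had 7.14% in XX against 20% in XO cells, and 37 cytosines were at 0% in XX against 15 in XO cells.
The size of the difference changed along the window. Furthest downstream in the gene, from 12025602 to 12025894, 40 cytosines averaged 10.7% in XX against 34.0% in XO cells, a difference of -23.3 points. From 12026185 to 12026562, around the second start of the group, 94 cytosines averaged 11.5% and 22.6%. Around the first start, from 12026722 to 12026881, 14 cytosines went the other way with 28.0% and 21.6%. Within the middle stretch, 6 forward-strand cytosines next to each other, from 12026524 to 12026562, kept a value of 70% in both libraries, while 6 reverse-strand cytosines from 12026406 to 12026427 had 7.14% in XX against 43.8% in XO cells.

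The Grb10 major promoter (12036401 to 12038401) had 6.50% ± 11.3 in XX against 10.01% ± 14.2 in XO cells over 120 cytosines. The difference of -3.51 points was less than the spread between strands and about alike on both (-3.07 and -3.99 points). At the start itself, from 12037131 to 12037916, 100 cytosines averaged 7.80% and 11.7%, and further into the gene, from 12036667 to 12036763, 20 cytosines were at 0% in XX against 1.65% in XO cells. A start further upstream shared 19 of its 24 cytosines with this window and read the edge of the CpG-dense region, at 15.7% ± 19.8 in XX against 34.3% ± 13 in XO cells. Its difference was -18.6 points, but it depended on the window and was -12.04 points with 500 bp and -3.83 points with 2 kb on either side, where the imprinted start had -12.4 and -13.1 points. Of the remaining Grb10 starts, the one just upstream of the imprinted start had 1 cytosine, at 11.1% in XX against 73.3% in XO cells, 1 internal start had 2 cytosines that averaged 18.7% and 32%, and the other 3 had none.

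At Plagl1 (chromosome 10, 13060504 to 13131694, forward strand, ENSMUSG00000019817.18) the imprinted start group holds 8 starts. All its 76 listed cytosines (window 13089691 to 13092013) lay in a single stretch from 13090744 to 13091189, and 47 of them were in annotated UTR. They averaged 4.13% ± 5.87 in XX against 12.2% ± 7.41 in XO cells, a difference of -8.08 points that was much alike on both strands (-8.98 and -7.31 points). XX was lower at 60 cytosines, equal at 3 and higher at 13, and 27 were at 0% in XX against 7 in XO cells. No cytosine exceeded 26.9% in XO cells.
The Plagl1 upstream promoter (13059504 to 13061504) had 15.5% ± 19.2 in XX against 12.5% ± 17.0 in XO cells over 43 cytosines. XX was higher at 32 of the cytosines and lower at 9. The direction was not the same on the strands, with forward and reverse values of -3.97 and 10.3 points, and with only the 6 cytosines within 500 bp of the start it was -20.6 points, so no direction was established there. The remaining Plagl1 starts held 3 cytosines at 67.0% in XX against 77.3% in XO cells, and none.

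At Impact (chromosome 18, 12955852 to 12992950, forward strand, ENSMUSG00000024423.6) methylation was low in XX cells around the main start. In the window of the main start group (12970923 to 12973272), which holds the starts of 2 transcripts, 16 cytosines averaged 5.53% ± 3.44 in XX against 20.8% ± 16.8 in XO cells, and 15 of 16 were lower in XX cells. The difference of -15.2 points was nearly the same on the forward (-15.0 points) and reverse strand (-15.7 points), but it was -23.3 points with each fragment between CCGG sites counted once and -7.77 points as a difference of medians. Only 2 of these cytosines lay within 1 kb of the start of the main transcript itself, at a mean of 8.80% and 41.9%, so the value comes mainly from intron 1, which holds a stretch of 32 cytosines from 12973131 to 12973506 that averaged 10.1% ± 6.79 in XX against 24.0% ± 13.2 in XO cells, with 31 of 32 lower in XX cells. Most of the rest of that stretch fell to a group of 3 starts in the intron, which had 14.8% ± 6.15 and 26.3% ± 6.93 over 16 cytosines and was lower in XX cells at 16 of 16.
At the most upstream annotated start of Impact (12954852 to 12956859), far before the main one, 10 cytosines averaged 6.08% ± 5.0 in XX against 3.73% ± 6.20 in XO cells, and 8 of 10 were higher in XX cells. This difference of 2.35 points is less than the spread between strands. An internal start near the end of the gene had 57.9% ± 15.6 in XX against 80.8% ± 11.1 in XO cells over 6 cytosines on 1 strand.

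Slc38a4 (chromosome 15, 96994820 to 97055956, reverse strand, ENSMUSG00000022464.14) had the fewest listed cytosines within 1 kb of a start, 25, against 48 at Impact, the next fewest. At its first start (97054956 to 97056956), 7 of 130 CpG cytosines were listed, all of them in intron 1. They averaged 13.1% ± 2.81 in XX against 22.3% ± 13.6 in XO cells, but the 4 forward-strand cytosines differed by -21.4 points and the 3 on the reverse strand by 7.11 points, so the difference of -9.21 points rests on 1 strand. The second start, further downstream, was close to unmethylated, at 1.63% ± 1.82 and 4.37% ± 4.47 over 7 cytosines. Between these starts, from 97051367 to 97051406, 6 cytosines averaged 6.25% in XX against 20.5% in XO cells, and 6 of 6 were lower in XX cells. A pair of internal starts had 47.2% ± 15.9 in XX against 48.6% ± 10.2 in XO cells over 11 cytosines, a difference of -1.41 points.

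**Figure D4:**
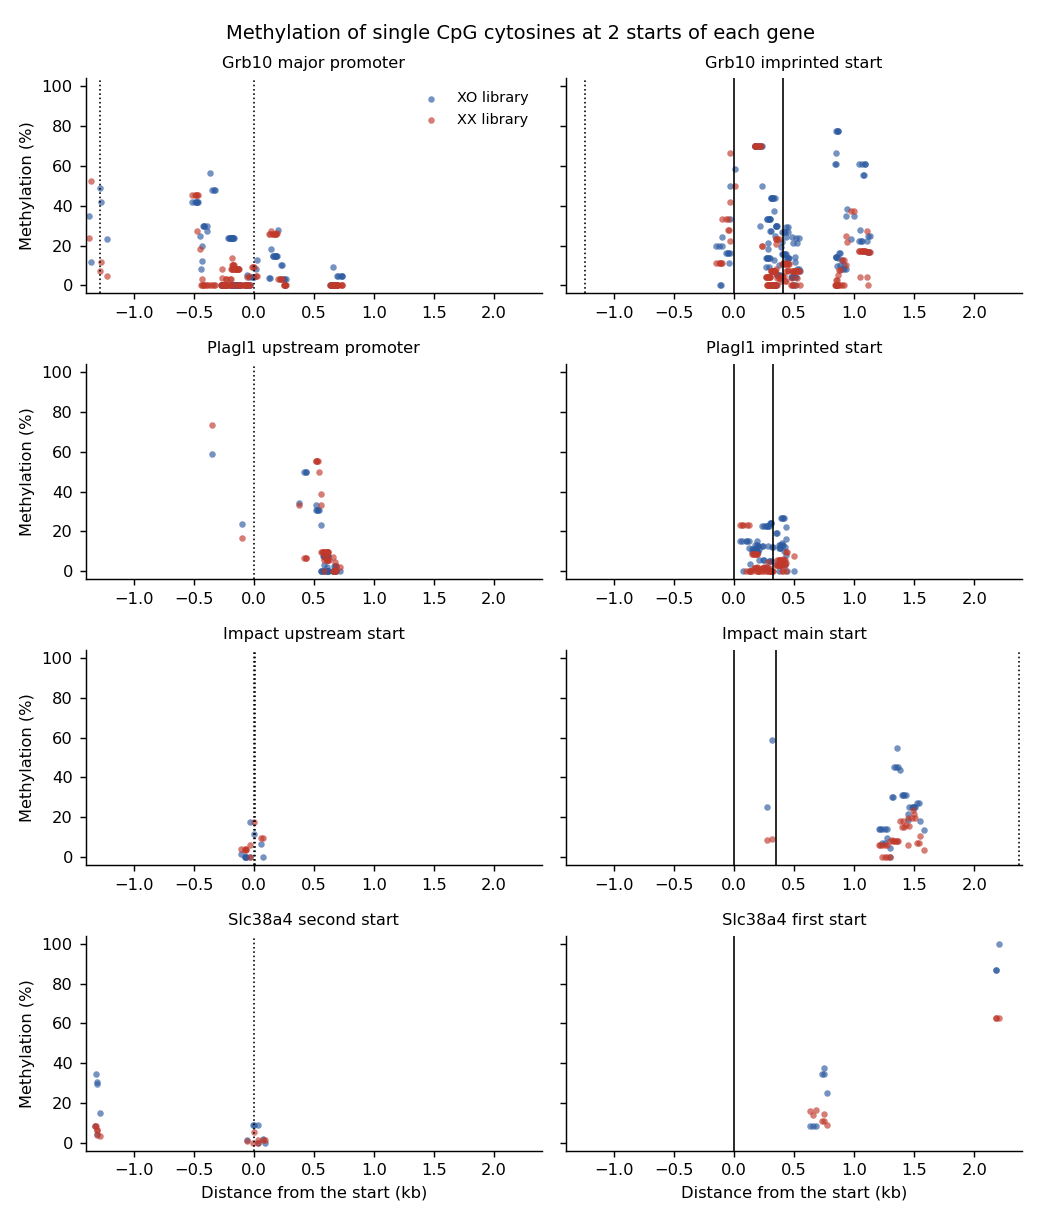
Methylation (%) of single listed CpG cytosines in the XX (red) and XO (blue) libraries against distance from a start (kb, positive in the direction of transcription), for a start without an assigned imprint (left) and the imprinted start (right) of 4 genes; vertical lines are annotated starts, solid for imprinted and dotted for other ones. Blue lies above most red points at the imprinted starts of Grb10, Plagl1 and Impact, and both colours overlap in the left panels.

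Pairs of promoters of one gene, chosen after their values were seen, can be set side by side. The differences were -10.8 points at Gnasxl and -0.335 points at Gnas exon 1, -12.8 and -3.51 points at the Grb10 imprinted start and major promoter, -8.08 and 3.0 points at Plagl1, -15.2 and 2.35 points at Impact, and -9.21 and -2.74 points at Slc38a4. The second of each pair had low methylation in XO cells, between 2.23% and 12.5%. At Gnas exon 1, Impact and Slc38a4 it was 2.23%, 3.73% and 4.37%, too low to fall as far as the first. Slc38a4 differed by -21.4 and 7.11 points on its strands at the first start. Other starts do not follow these pairs. The imprinted exon 1A had -3.19 points, and the Grb10 far upstream, Impact intron and last Impact internal starts had -18.6, -11.5 and -22.9 points. At Plagl1 the XO levels of the pair were alike, 12.2% and 12.5%, while the XX levels were 4.13% and 15.5%. The Plagl1 upstream promoter, however, differed by -3.97 and 10.3 points on the forward and reverse strands. Within 500 bp of its start it differed by -20.6 points, so no direction was established there.
The strands gave the same direction at most of these starts. Methylation was lower in XX cells on both strands at 5 of 6 imprinted start groups and at 8 of 13 others, against 49.6% of 29712 autosomal start groups with cytosines on both strands. That share is over start groups of any XO level, whereas all 6 imprinted ones had at least 10%. A share at like level was not calculated. Slc38a4 was the exception among the imprinted starts.

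**Figure D5:**
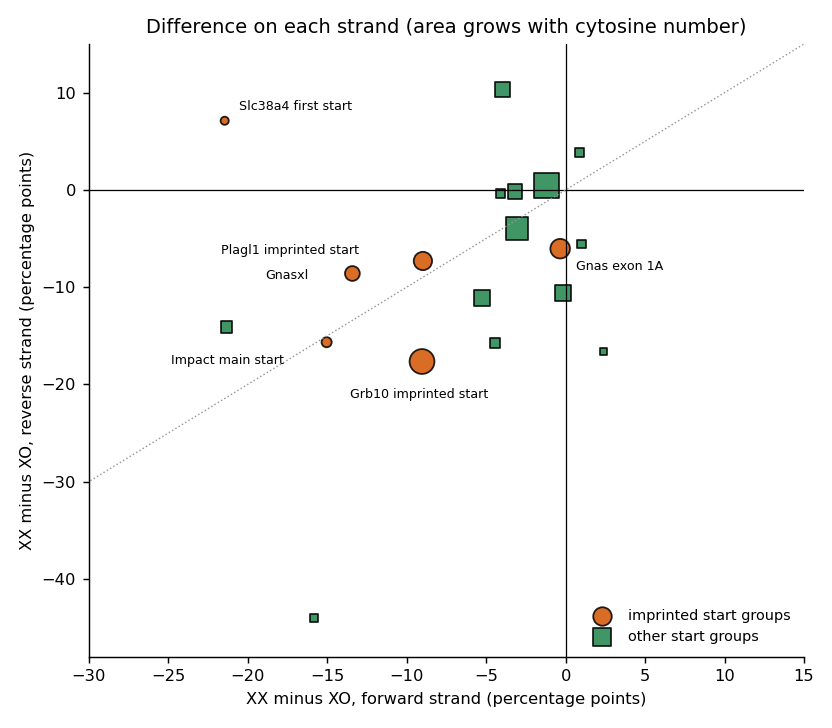
XX minus XO (percentage points) from forward-strand cytosines (horizontal) and from reverse-strand cytosines (vertical) for member start groups with values on both strands, imprinted starts as orange circles and others as green squares, with area growing with the number of cytosines; the dotted line marks equal values. Of the imprinted starts 5 lie in the lower left, where both strands are lower in XX cells, and the Slc38a4 first start lies above it.

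Away from all annotated starts of the 6 genes (over 1 kb), methylation was higher than near them and also lower in XX cells. The 226 such cytosines averaged 21.6% in XX against 30.6% in XO cells, a difference of -8.95 points with XX lower at 158, against 10.4% and 16.6% for the 826 cytosines near a start. Among the 226 are the stretches of 21, 29, 51 and 5 cytosines downstream of the imprinted Gnasxl start, mainly in annotated exons. Much of the mean is thus from that region. By gene, the means away from starts were 18.1% and 26.1% at Gnas (149 cytosines), 31.1% and 37.5% at Grb10 (12), 37.4% and 47.5% at Plagl1 (9), 35.8% and 61.2% at Impact (10) and 24.2% and 33.1% at Slc38a4 (46). At a stretch of 6 cytosines between Gnasxl and exon 1A, from 174316904 to 174317100, the means were 43.5% and 73.0%. Not among the 226, as they lie within 1 kb of the last internal Gnas start, are 6 cytosines from 174345184 to 174345375. They had 19.2% in XX against 49.1% in XO cells. Their difference, -29.9 points, came from forward and reverse values of -15.8 and -44.0 points, with 3 cytosines each.

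Sequence around the starts was compared next. The windows of the imprinted starts held between 60 and 318 CpG cytosines (median 221 over 22 distinct starts), against a median of 68 over 130588 distinct starts on chromosomes 1 to 19 and X. ZFP57, a zinc finger protein that protects imprints, binds the methylated hexamer TGCCGC. This hexamer, searched on both strands, occurs in the 2001 bp around 21 of 22 imprinted starts and 13 of 31 other starts of the 6 genes, against 35.0% of all starts. As longer runs of CpGs hold it more often, starts with at least 100 CpG cytosines were also compared, of which 62.2% held it, as did 20 of 20 imprinted and 12 of 14 other starts of the 6 genes. Starts that lie close together share their windows, so these are few independent sequences. At the Plagl1 imprinted start, where the printed stretch contains it 2 times, 5 listed cytosines within the hexamer averaged 8.01% in XX against 14.1% in XO cells, where the window had 4.13% and 12.2%. At the Grb10 imprinted start, 4 such cytosines averaged 5.39% and 11.8%, where the window had 12.8% and 25.6%.

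Of 16 other imprinted genes (Kcnq1ot1, Airn, Peg13, Nap1l5, Peg3, Peg10, Mest, Zrsr1, Snrpn, Mcts2, Nnat, Inpp5f, Igf2r, Meg3, H19 and Rasgrf1), 29 start groups had at least 3 cytosines. These were all start groups of the genes, whether imprinted or not. XX was at least 10 points lower at 13 of 29, against 29.0% of autosomal start groups. Among autosomal start groups with at least 10% methylation in XO cells, which 27 of the 29 had, it was 47.3%. XX was at least 10 points higher at 1, against 2.19%. The median difference was -8.96 points. The median share kept was 63.5% at the 27, against 67.3% over such autosomal start groups. The start groups of other genes closest to the imprinted starts' medians in XX and XO cells, over 2 libraries, were those of Gm43610, Gtf2i and Ush1g, at distances of 0.199, 0.222 and 0.230 points, and 156 of 16841 genes lay within 2 points.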

How the data were processed

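RRBS libraries of 1 XX and 1 XO sample were analysed. The authors deposited the percent of methylated reads for each CpG cytosine in both libraries, with strands listed separately; bcl2fastq, Bismark and mm10 are named in the submitters' processing notes, and a coverage minimum is not given in the sources used here. Positions were read on GRCm38 with GENCODE M21, and no cytosine was removed. Of the listed cytosines, 99.98% lay within 100 bp of a CCGG site, against 26.5% of all CpG cytosines, so mainly CpGs near such sites were read. The members, lists and thresholds were chosen with earlier results of these data known. Roles of starts were to follow from the order of starts and textbook knowledge, with the Impact imprint at the annotated gene start and the Grb10 imprint at the CpG-dense start after the most upstream one. For both genes a start further downstream, the one known as imprinted, was used instead. These roles were written down after the methylation of each start had been seen, and the literal rule was run as an alternative chosen after seeing the data. Start groups with at least 10 cytosines are given in full. Having 1 library per karyotype, no test was made. The code was tested on simulated data under Python 3.11.15 with the packages numpy 2.4.6, pandas 2.3.3 and matplotlib 3.10.9.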

Additional observations from a re-analysis of the deposited data

How the results depend on the processing

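The summaries at imprinted starts, at other starts and away from starts were recalculated 34 times, among others with other windows, 1 strand, fragments counted once, medians, and other roles. All 34 were negative. The difference lay between -11.2 and -5.80 points at imprinted starts, between -9.63 and -2.18 points at other starts, and between -12.1 and -8.69 points away from starts. All moved by less than the 6.78 points by which strands vary. That spread is for 1 strand of a single window and exceeds the size of the main difference at other starts, -5.32 points, so it is a wide margin for these summaries. The roles turned the order of the classes when the rule was read literally for both Grb10 and Impact. Imprinted starts then had -5.80 and other starts -9.63 points, and the share kept at imprinted starts was 62.1%. With the rule applied to either gene alone, the order was kept, at -8.64 points for imprinted and -8.06 points for other starts. With every single start taken separately, the share kept was 33.8%. The count of start groups at least 10 points lower in XX cells, 8 of 20, was 4 of 15 with 500 bp windows, 5 of 15 with at least 10 cytosines, and 2 of 20 at a threshold of 20 points. Of 167 recalculated values of single start groups, 15 moved by more than 6.78 points and 10 changed sign, all 10 at start groups that differed by less than 10 points. Impact moved to -23.3 points with fragments counted once and to -7.77 points with medians, the Grb10 far upstream start to -3.83 points with 2 kb windows, and Slc38a4 to -2.18 points with fragments counted once. The cause was not tested. No paired analysis was possible because each karyotype has 1 library. As the depth is unknown, a value of 0% can rest on few reads, and no coverage minimum could be varied.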
